A study of Mus musculus with 8 samples.

Results

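miR-675 and miR-483 are the miRNAs of 2 neighbouring imprinted genes, H19 and Igf2, and their 4 mature forms, mmu-miR-675-3p, mmu-miR-675-5p, mmu-miR-483-3p and mmu-miR-483-5p, were followed over 8 small RNA libraries. They were chosen by gene name, and miR-675 was picked because it was already known to be much lower on PERK knockdown and with ATF4 in these same libraries. They are 4 of 1978 mature mouse miRNAs in the count tables. Of the 605 miRNAs listed for the ATF4 pair, 2 are members (both arms of miR-675), and of the 696 listed for P19 cells, 2 are members (both arms of miR-483).

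The cells were C2C12, a line of mouse skeletal myoblasts, and P19, a line of mouse embryonal carcinoma cells. C2C12 lines carried a stable lentiviral hairpin directed at Perk (shPerk), which makes them PERK knockdown cells, or a control hairpin (shNC, negative control cells), and were selected with puromycin. They were sampled in growth medium, called day 0, and on day 3 of culture in differentiation medium. Another pair of C2C12 cultures carried the coding sequence of ATF4 behind an EF1α promoter or the empty vector and was grown without differentiation medium, and a further pair was P19 cells with shNC or shPerk, whose day and induction state are not given in the labels. Each condition had 1 library and each hairpin was 1 stable line, so replicate error is unknown throughout. The 4 hairpin libraries of C2C12 held 8800977 to 11993448 reads on miRNAs, so that 3 reads were 0.250 to 0.341 CPM (counts scaled to 1000000 reads on miRNAs), and the depth of the ATF4 and P19 libraries is unknown because only RPM values, on the same kind of scale, were deposited. The 4 muscle miRNAs miR-1a-3p, miR-133a-3p, miR-133b-3p and miR-206-3p were above 0 in every C2C12 library, and 10 miRNAs typical of embryonal carcinoma cells, from the miR-290 and miR-302 clusters, summed to 183337 and 424158 RPM in the P19 libraries and to at most 0.353 CPM in the C2C12 hairpin libraries. The mRNA of Perk and Atf4 is not measured by small RNA libraries, so neither the knockdown nor the overexpression was checked here.

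H19 is a long non-coding RNA expressed from the maternal chromosome, and Igf2, a fetal growth factor, is expressed from the paternal one. Both genes are controlled by a shared imprinting control region and shared enhancers, are abundant in embryonic tissue, and are known to rise during muscle differentiation and regeneration. miR-675 is cut from the H19 RNA itself, and in muscle its arms have been described as repressors of Smad1, Smad5 and Cdc6. miR-483 lies in the Igf2 gene, its 3p arm is known to repress the cell death gene Bbc3, and its 5p arm has been described as raising Igf2 transcription. PERK is a kinase of the endoplasmic reticulum that phosphorylates eIF2α during the unfolded protein response, which favours translation of the transcription factor ATF4.

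The mature sequences are shown because each arm has its own targets. They are written 5′ to 3′ from RefSeq on GRCm38.p6, and capitals mark the seed (bases 2 to 8), the part that pairs with a target.
mmu-miR-675-5p: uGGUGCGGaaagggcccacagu
mmu-miR-675-3p: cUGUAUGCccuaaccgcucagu
mmu-miR-483-5p: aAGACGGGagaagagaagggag
mmu-miR-483-3p: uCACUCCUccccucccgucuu
The 4 seeds differ from each other, and no other mature mouse miRNA in the RefSeq table carries any of them. Each mature sequence was found in 1 hairpin, so none of these arms has a second gene of identical sequence in that table. miR-483-5p was 95.5% purines, more than 99.9% of the mature miRNAs in the table, and miR-483-3p was 9.5% purines, with 0.1% of the mature miRNAs lower. The arms of miR-675 were less extreme, with 63.6% purines in miR-675-5p and 36.4% in miR-675-3p.

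The hairpins are shown to place both arms, which are in capitals.
Mir675: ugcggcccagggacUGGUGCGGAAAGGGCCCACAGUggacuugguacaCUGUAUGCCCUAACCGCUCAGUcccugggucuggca
Mir483: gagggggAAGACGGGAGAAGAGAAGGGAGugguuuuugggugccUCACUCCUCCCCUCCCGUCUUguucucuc
Mir675 spans 84 bases at chr7:142577064-142577147 on the minus strand, and Mir483 spans 73 bases at chr7:142654924-142654996 on the same strand. In the GENCODE annotation of GRCm38, Mir675 lies within an exon of 3 of the 7 H19 transcripts, within an intron of 1, and wholly within neither in the other 3. Mir483 lies within an intron of 7 of the 9 Igf2 transcripts and in an exon of 0. The hairpins are 77.8 kb apart and their host genes 72.6 kb apart. Predicted folding energy was -56.0 kcal/mol for Mir675 and -33.8 kcal/mol for Mir483, and in each predicted fold 16 of the 22 bases of the 5p arm paired with the 3p arm.

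miR-675 was expressed at a moderate level in negative control myoblasts and had few reads in PERK knockdown myoblasts at both days. miR-675-5p had 721 reads in shNC cells and 20 in shPerk cells at day 0, and 326 in shNC cells and 17 in shPerk cells at day 3. Both shNC libraries stood above both shPerk libraries. miR-675-3p had 528 and 16 reads at day 0 and 244 and 7 at day 3, in the same order. At day 0 these were 63.7 CPM (95% counting interval 59.1 to 68.5) against 2.27 CPM (1.39 to 3.51) for miR-675-5p, and 46.6 CPM (42.7 to 50.8) against 1.82 CPM (1.04 to 2.95) for miR-675-3p. By rank, miR-675-5p went from position 214 of 1071 detected miRNAs in shNC cells to 468 of 945 in shPerk cells. Intervals throughout come from read counts. They hold counting error alone, with PCR copies counted as if they were separate molecules, and leave out the spread between cultures.

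**Figure D1:**
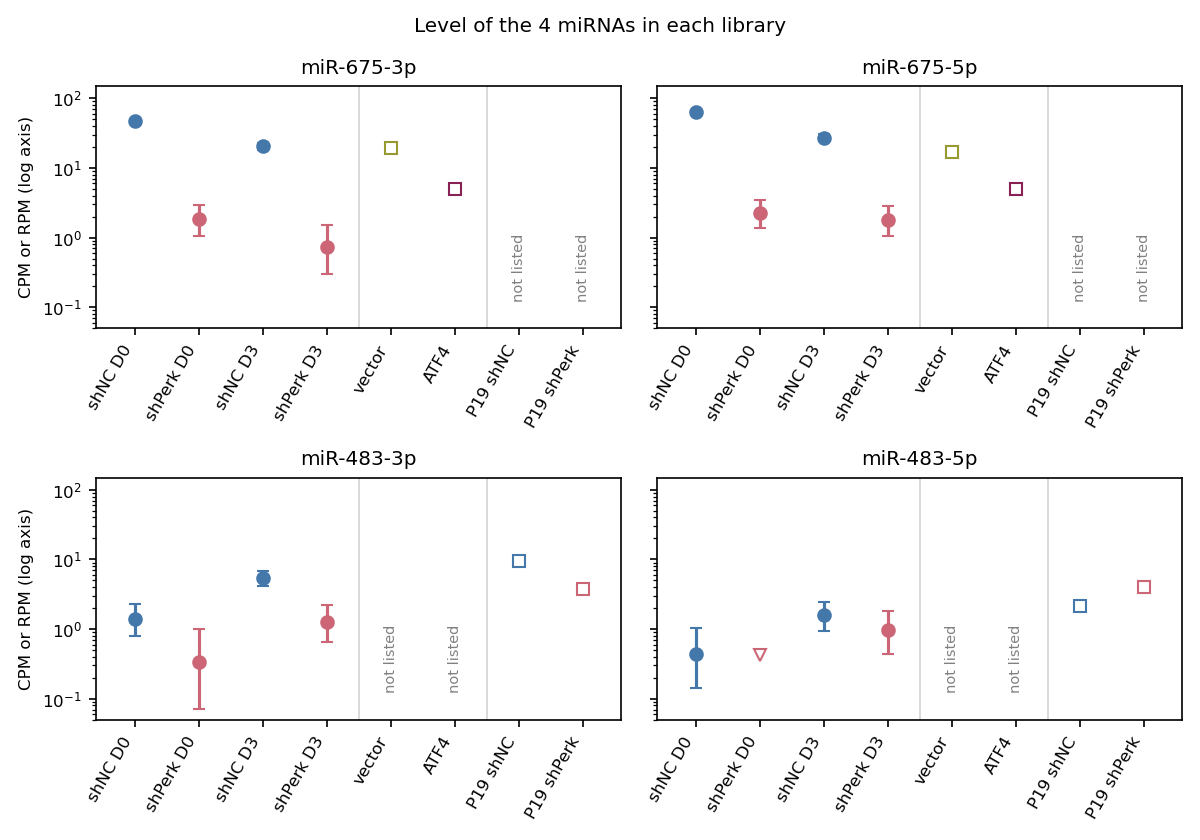
Level of each of the 4 miRNAs in 8 libraries (log axis), in CPM for the C2C12 hairpin libraries at day 0 (D0) and day 3 (D3; filled circles with 95% Poisson intervals, which are smaller than the circle at high counts) and in RPM for the ATF4 and P19 pairs (open squares, no interval). The open triangle is the upper limit of a library with 0 reads. Both arms of miR-675 sit above 20 CPM in the shNC libraries and below 2.5 CPM in the shPerk libraries, while miR-483-3p is highest among the C2C12 libraries in shNC cells at day 3.

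miR-483 was scarcer, and its 3p arm had more reads than its 5p arm in each hairpin library. miR-483-3p had 16 reads in shNC cells and 3 in shPerk cells at day 0, and 64 in shNC cells and 12 in shPerk cells at day 3. The highest of the 4 levels was that of shNC cells at day 3, 5.34 CPM (4.11 to 6.81), and the lowest that of shPerk cells at day 0, 0.341 CPM (0.0703 to 0.996). miR-483-5p had 5 and 0 reads at day 0 and 19 and 9 at day 3 in shNC and shPerk cells. A count of 0 in the shPerk library of day 0 has an upper 95% limit of 0.419 CPM. At these depths miR-483-5p could not be ordered between shNC and shPerk cells at day 3, where 1.58 CPM (0.954 to 2.47) and 0.955 CPM (0.436 to 1.81) overlap.

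For both arms of miR-675 together, the order of levels was shNC at day 0 with 110.3 CPM (104.3 to 116.6), shNC at day 3 with 47.5 CPM (43.7 to 51.6), shPerk at day 0 with 4.09 CPM (2.86 to 5.66) and shPerk at day 3 with 2.55 CPM (1.63 to 3.79). The last 2 neighbours overlap, and the others are apart by more than counting error. For both arms of miR-483 the order was shNC at day 3 with 6.92 CPM (5.51 to 8.58), shPerk at day 3 with 2.23 CPM (1.38 to 3.40), shNC at day 0 with 1.85 CPM (1.15 to 2.84) and shPerk at day 0 with 0.341 CPM (0.0703 to 0.996). The middle pair overlaps. The highest library was thus an undifferentiated one for miR-675 and a differentiated one for miR-483.

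For each pair of libraries, log2 fold changes were computed with TMM scaling over the miRNAs that reached 1 CPM in either library. Calls of higher or lower needed a log2 fold change beyond 1 together with a two-sided exact binomial p on the reads, adjusted by Benjamini-Hochberg over all miRNAs tested, under 0.05. Such a call compares the libraries and not the conditions. In PERK knockdown cells at day 3, miR-675-3p differed from negative control cells by a log2 fold change of -4.49, with an interval from -5.84 to -3.45, and miR-675-5p by -3.64 (-4.45 to -2.95). They stood at positions 4 and 11 from the lowest of 575 miRNAs. miR-483-3p differed by -1.79 (-2.83 to -0.90) and was called lower, and miR-483-5p, at -0.46 (-1.79 to 0.75), was not called. Over all miRNAs tested at day 3, 21.9% were called lower and 20.0% higher. Since this contrast chose miR-675, its 3 members called lower of 4 tested are a description. The call of miR-483-3p was lost when edgeR's exact test was given a biological coefficient of variation of 0.4 between cultures.

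At day 0, miR-675-5p was lower by a log2 fold change of -4.64 (-5.37 to -4.01) and miR-675-3p by -4.51 (-5.34 to -3.81), at positions 5 and 6 from the lowest of 602 miRNAs. miR-483-3p, with 3 reads in shPerk cells, was at -1.86 (-4.31 to -0.09), and this call was lost without a filter on low counts and at assumed coefficients of variation of 0.2 and 0.4. miR-483-5p was below the filter. The 3 members tested were called lower, and 18.1% of all miRNAs were called lower and 16.4% higher, but knockdown chose miR-675 and nothing is read from this count either. The difference between day 3 and day 0 in the knockdown log2 fold change was 0.02 (-1.28 to 1.32) for miR-675-3p, 1.0 (0.05 to 1.95) for miR-675-5p and 0.06 (-1.93 to 2.05) for miR-483-3p. The interval leaves out 0 for miR-675-5p, whose knockdown difference was smaller at day 3, and holds 0 for the others. These contrasts chose miR-675 and the intervals hold counting error alone, so these differences are a description too.

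**Figure D2:**
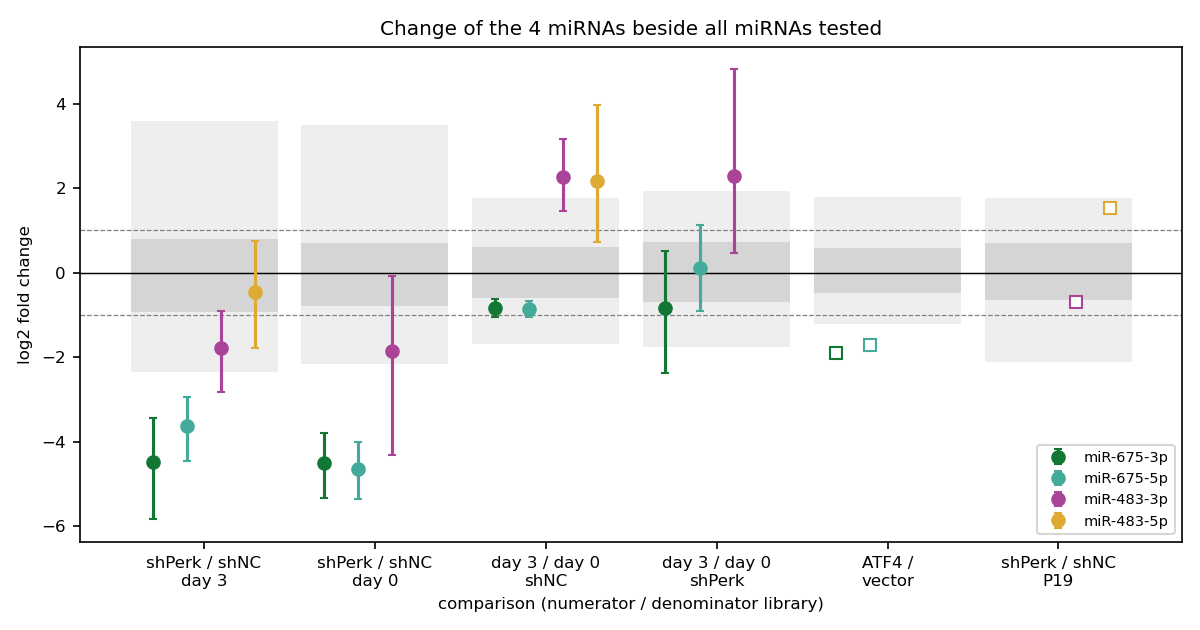
Log2 fold change of each member in 6 comparisons, numerator library over denominator library. Filled circles carry 95% counting intervals, open squares are RPM pairs without an interval, dark and light grey bars span the middle 50% and 90% of all miRNAs tested, and dashed lines mark a log2 fold change of 1 in either direction. miR-675 lies below the light bar in both knockdown pairs of C2C12 and in the ATF4 pair, and miR-483-3p lies above it in both differentiation pairs.

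Other miRNAs moved with the knockdown too. The 4 muscle miRNAs, which mark myogenic differentiation, summed to 19165 CPM in shNC cells and 3839 CPM in shPerk cells at day 0 and to 88480 and 24312 CPM at day 3. All 4 were called lower in the knockdown at day 3, with miR-133a-3p at a log2 fold change of -3.82 and miR-206-3p at -1.42. At day 0, 3 were called lower, and miR-1a-3p stood at -0.72. Of the blood markers, 3 of 4 were above 0 in each hairpin library, and their summed level was 9.27 CPM in shNC and 234.5 CPM in shPerk cells at day 0 and 8.59 and 78.4 CPM at day 3. Most of that sum in shPerk cells was miR-142a-3p (224.6 and 70.5 CPM), while miR-223-3p, a myeloid marker, was at 0 in 3 of these libraries and at 0.106 CPM in shPerk cells at day 3. Of the neuronal markers, miR-9-5p was at 172.8 CPM in shNC and 2641 CPM in shPerk cells at day 0 and at 550.6 and 4044 CPM at day 3, and miR-124-3p was at 0 in all 4 libraries. The epithelial list stayed between 2.33 and 4.77 CPM, and the liver miRNA miR-122-5p between 2.76 and 10.1 CPM. The part of any of these in the level of miR-675 or miR-483 was not tested, and in bulk cultures fewer cells of a type and less RNA per cell cannot be told apart.

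During differentiation of negative control cells, a contrast that the choice of members did not use, miR-675 and miR-483 went in opposite directions. miR-483-3p rose from 16 to 64 reads, or by 2.26 (1.47 to 3.16) in log2 fold change, and miR-483-5p rose from 5 to 19 reads, 2.17 (0.73 to 3.98). miR-675-3p went from 528 to 244 reads, -0.84 (-1.06 to -0.62), and miR-675-5p from 721 to 326 reads, -0.87 (-1.06 to -0.68). Neither arm of miR-675 passed the fold limit, though each interval lay below 0. The 2 members called higher stand beside 15.0% of 593 miRNAs called higher, and the members called lower were 0, beside 11.0%. At an assumed coefficient of variation of 0.4 both calls of miR-483 were lost, and at a minimum of 10 CPM neither arm of miR-483 was tested. Under scaling by total reads, miR-675-3p was at -1.20 and miR-675-5p at -1.23, and both were called lower. The 4 muscle miRNAs were all called higher, from a log2 fold change of 2.23 for miR-206-3p to 6.66 for miR-1a-3p.

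In PERK knockdown cells over the same 3 days, miR-675-3p went from 16 to 7 reads, -0.84 (-2.37 to 0.52), and miR-675-5p from 20 to 17 reads, 0.11 (-0.91 to 1.12). Neither was called, and both intervals hold 0. miR-483-3p went from 3 to 12 reads, 2.29 (0.46 to 4.81), and was called higher, but not under total-read scaling or with an assumed coefficient of variation of 0.2 or 0.4. miR-483-5p went from 0 to 9 reads. In CPM the 9 reads were 2.80-fold the 3-read floor of the day 0 library, without TMM scaling and leaving out their counting error. Beside the 1 member called higher of 3 tested, 16.8% of 573 miRNAs were called higher and 12.6% lower. The 4 muscle miRNAs were called higher in these cells as well, from 1.90 for miR-133b-3p to 5.22 for miR-1a-3p. The comparisons of knockdown and of differentiation share libraries and are not independent of each other.

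The ratio of miR-675 to miR-483 reads, taken within a library and so free of scaling between libraries, differed widely among the hairpin libraries. It was 59.5 in shNC cells at day 0, from 1249 and 21 reads. It was 12 in shPerk cells at day 0, from 36 and 3 reads. It was 6.87 in shNC cells at day 3, from 570 and 83 reads, and 1.14 in shPerk cells at day 3, from 24 and 21 reads. The odds ratio of day 3 over day 0 was 0.116 (0.0673 to 0.191) in shNC cells and 0.0979 (0.0169 to 0.380) in shPerk cells, so the shift towards miR-483 with differentiation was seen in both lines beyond counting error. The odds ratio of shPerk over shNC was 0.167 (0.0848 to 0.331) at day 3 and 0.202 (0.0564 to 1.11) at day 0. Since miR-675 was picked for its fall on knockdown, these shPerk over shNC ratios are a description.

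The share of the 5p arm, which does not depend on the level of the hairpin, overlapped for miR-675 across all 4 hairpin libraries. It was 57.7% (exact Clopper-Pearson interval 54.9 to 60.5) in shNC cells and 55.6% (38.1 to 72.1) in shPerk cells at day 0. At day 3 it was 57.2% (53.0 to 61.3) and 70.8% (48.9 to 87.4). The odds ratio of 5p against 3p reads was 0.978 (0.797 to 1.20) for day 3 over day 0 in shNC cells, 0.915 (0.446 to 1.91) for shPerk over shNC at day 0, and 1.82 (0.702 to 5.26) at day 3. Each interval holds 1. Within counting error alone, the interval in shNC cells holds changes in the odds from 0.797 to 1.20 times. Those with shPerk cells are wider and hold a change of 1.82 times. For miR-483 the 3p arm took most reads, with a 5p share of 23.8% (8.22 to 47.2) in shNC cells at day 0, 22.9% (14.4 to 33.4) at day 3, and 42.9% (21.8 to 66.0) in shPerk cells at day 3. In shPerk cells at day 0 all 3 reads were 3p. The odds ratio at day 3 for shPerk over shNC was 2.50 (0.801 to 7.66), so a difference in arm use was not detectable at this depth.

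**Figure D3:**
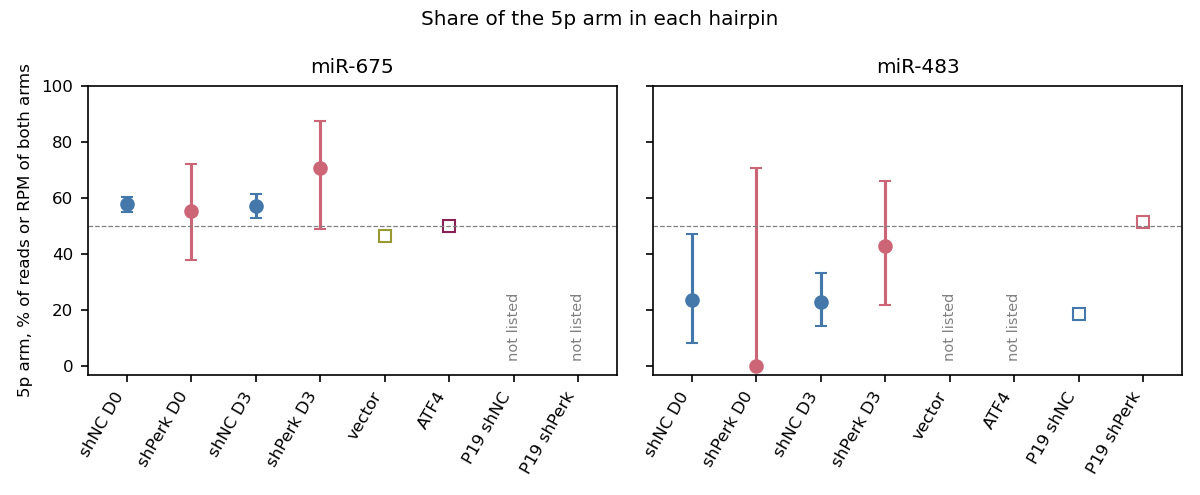
Share of the 5p arm, in percent of the reads (circles, exact 95% binomial intervals) or of the RPM (open squares, no interval) of both arms, for miR-675 and miR-483 in each library; the dashed line is 50%. The 4 hairpin libraries of miR-675 overlap between 55.6% and 70.8%, and miR-483 lies below 50% in each C2C12 library and at 18.7% and 51.5% in P19 cells.

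With ATF4 in undifferentiated C2C12 cells, both arms of miR-675 were lower than with the empty vector. miR-675-3p was at 19.37 RPM with vector and 4.93 RPM with ATF4, a log2 fold change of -1.91, and miR-675-5p at 16.92 and 4.93 RPM, -1.72. The arms had the same value in the ATF4 library, and the 5p share was 46.6% with vector and 50% with ATF4. They stood at positions 8 and 13 from the lowest of 605 miRNAs, where 8.93% were lower and 14.5% higher by a log2 fold change beyond 1, the only limit that RPM values without reads allow. ATF4 was used to choose miR-675, so these values are a description. miR-483 was not listed in this pair. Of the muscle miRNAs, miR-1a-3p went from 6.42 to 259.4 RPM and miR-133a-3p from 69.4 to 154.0 RPM, while miR-133b-3p (0.52) and miR-206-3p (0.56) were within the fold limit. The liver miRNA miR-122-5p went from 79.7 to 26.1 RPM in the same pair, the blood markers summed to 72.1 and 50.5 RPM, and miR-9-5p went from 76.0 to 236.0 RPM. The part of these in the values of miR-675 was not tested. The level of miR-675 in the vector library cannot be set against that of shNC cells at day 0, because these tables were normalized separately.

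In P19 cells miR-675 was not listed, and the arms of miR-483 went apart. miR-483-3p was at 9.35 RPM in negative control and 3.81 RPM in PERK knockdown cells, a log2 fold change of -0.69 after TMM scaling, within the fold limit. miR-483-5p was at 2.15 and 4.04 RPM, 1.52, beyond it. The 5p share was 18.7% and 51.5%. In this pair 17.7% of 696 miRNAs were lower and 17.7% higher. By total reads the values were -1.30 for miR-483-3p, beyond the limit, and 0.91 for miR-483-5p, within it. The authors listed values under 1 RPM at 0, and the reads behind these 4 values are unknown. The epithelial markers summed to 317.2 and 1345 RPM, the neuronal ones to 3556 and 1459 RPM, and the embryonal carcinoma miRNAs went from 183337 to 424158 RPM in the same pair, and their part in these values was not tested.

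Other imprinted loci offer a set of miRNAs with the same kind of host. The list held miR-335 of Mest, miR-296 and miR-298 of the Gnas locus, and the miRNAs of the Dlk1-Dio3 region. Of its 114 miRNAs in the C2C12 count tables, 7 passed the filter at day 3 and 8 at day 0. Those 7 were arms of miR-296, miR-298 and miR-335, and miR-127-3p, so they are not separate loci. At day 3, PERK knockdown cells had 4 lower calls and 1 higher call in the list, beside 21.9% and 20.0% of all miRNAs. The lower calls were miR-296-3p, miR-296-5p and miR-298-5p, all of the Gnas locus, and miR-335-3p. The higher call was miR-127-3p, with 11 reads in shNC and 18 in shPerk cells. The median log2 fold change of the list was -1.28 beside -0.05 over all miRNAs. miR-296-5p went from 1397 to 168 reads, -2.44 (-2.68 to -2.21), and miR-298-5p from 5322 to 1038 reads, -1.75 (-1.84 to -1.65). At day 0 there were 2 lower and 3 higher calls, beside 18.1% and 16.4% of all miRNAs, and the median was 0.14 beside -0.03. Both lower calls were of the Gnas locus. The higher ones were both arms of miR-335 and miR-411-5p, the last at 3 and 10 reads. miR-298-5p was at -1.28 and miR-296-5p at -1.10, while miR-335-3p went from 26 to 168 reads, 3.21 (2.61 to 3.87). The imprinted miRNAs of C2C12 cells thus did not share a direction at day 0. During differentiation of shNC cells, 2 of 7, both arms of miR-335, were called higher and 0 lower, beside 15.0% and 11.0% of all miRNAs. In shPerk cells 1 was called higher and 2 lower, beside 16.8% and 12.6%. With ATF4, 2 of 8 were lower and 0 higher, beside 8.93% and 14.5% of all miRNAs, with a median of -0.72 beside 0.00. Both of the lower ones were at low levels, miR-127-3p going from 2.74 to 0 RPM and miR-298-3p from 3.69 to 1.64 RPM. In P19 cells, where the Dlk1-Dio3 miRNAs were widely expressed, 82 of 96 were lower in PERK knockdown cells and 0 higher. Over all miRNAs 17.7% were lower and 17.7% higher, and the median of the list was -1.73 beside -0.04. Most of the 96 are arms from the Dlk1-Dio3 region and not separate loci, and miR-335-3p (-0.16) and miR-335-5p (-0.18) were within the limit. Examples were miR-3072-3p, from 202.9 to 14.6 RPM, and miR-667-3p, from 204.1 to 16.8 RPM.

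The profiles nearest to miR-675 over the 6 C2C12 libraries were taken among 370 miRNAs that reached 10 CPM in any hairpin library and were listed for the ATF4 pair. Likeness was the Euclidean distance between values of log2(CPM or RPM + 1), each centred on its mean within its set of libraries. For each arm of miR-675 the nearest was the other arm, at a distance of 0.36. For miR-675-3p the next were miR-383-5p (1.16), miR-501-5p (1.18), miR-129-5p (1.63) and miR-486a-5p (1.71). The same 4 followed for miR-675-5p, at 1.24, 1.13, 1.54 and 1.66. miR-383-5p, from an intron of Sgcz, had 793 and 9 reads in shNC and shPerk cells at day 0, 125 and 2 at day 3, and 85.2 and 16.7 RPM with vector and ATF4. miR-501-5p, from an intron of Clcn5, had 1730 and 138 reads at day 0 and 1200 and 85 at day 3, and 114.5 and 84.6 RPM. miR-129-5p had 3774 and 140 reads at day 0 and 646 and 90 at day 3, with 1140 and 1036 RPM. miR-486a-5p, from an intron of the muscle and erythroid gene Ank1, had 46214 and 7599 reads at day 0 and 59206 and 6332 at day 3, with 1028 and 452.1 RPM, and its values are identical to those of miR-486b-5p, so the 2 cannot be told apart. All were lower in shPerk than in shNC cells at each day, as the measure of likeness selects for. With ATF4, miR-129-5p was at a log2 fold change of -0.07 and miR-501-5p at -0.37, unlike miR-675. With differentiation of shNC cells miR-383-5p was at -2.39, miR-129-5p at -2.27, miR-501-5p at -0.25 and miR-486a-5p at 0.63. The arms of miR-675 were at -0.84 and -0.87 there.

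**Figure D4:**
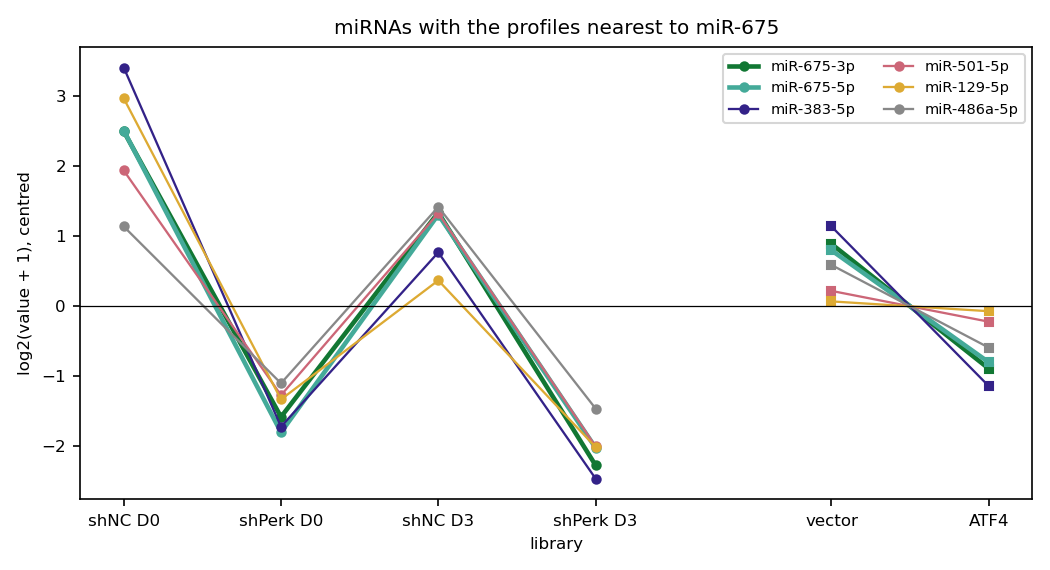
Values of log2(CPM + 1) in the 4 hairpin libraries (circles) and log2(RPM + 1) in the ATF4 pair (squares), each centred on its own mean, for both arms of miR-675 and the 4 other miRNAs nearest to them; lines join libraries of a set and mark no time course. All 6 are above 0 in the shNC libraries and below 0 in the shPerk libraries, and in the ATF4 pair miR-129-5p is nearly flat.

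For the host genes, the RefSeq promoter table (250 bases before to 50 after a start) held 4 entries for Igf2. The motif TGATGCAA, the core of the element that ATF4 binds together with C/EBP factors, was searched on both strands. It was in 0 of the 4 Igf2 promoters and in 294 of 32851 promoters (0.895%). H19 had no entry. No match says only that these letters are not in these windows.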

How the data were processed

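Members and lists were chosen with earlier results of these data known. The authors ligated linkers to RNA, amplified it by PCR, selected it on a gel and annotated reads with bowtie on mm10 (GRCm38); the version of bowtie, the miRNA release and the rule for reads matching several miRNAs are not given in the sources used here. The authors deposited raw counts of reads per mature miRNA for the 4 C2C12 hairpin libraries (8800977 to 11993448 reads) and RPM values, with values under 1 listed at 0, for the ATF4 and P19 pairs. The tables deposited by the authors also hold their log2 fold changes and p-values and, in the RPM tables, q-values, which were not used.

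Samples were grouped by their labels, 1 library per condition. For counts, edgeR 4.0.16 gave the TMM factors of each pair. Log2 fold changes (prior count 0.125) were then computed in Python with these factors, with Clopper-Pearson intervals (scipy 1.17.1). For RPM, TMM factors came from the RPM values and 0 was set to 1 RPM. No p-value is printed, since replicates are absent. The plan gave no fold against a library at or under 3 reads; such values are given here with their counting interval. The named miRNAs are the members, the 4 muscle miRNAs, of the other imprinted miRNAs the 2 called with the largest change in each direction per knockdown and ATF4 comparison with a mean level of 10 or more, and the 5 nearest profiles of each miR-675 arm; 0 seed mates were found. Calls were also run on a simulated pair that held counting error alone, which says nothing about the spread between cultures. Alternatives were other scalings (total reads, DESeq2 1.42.0 median of ratios, upper quartile), filters, prior counts, RPM offsets and assumed coefficients of variation. Hairpins were folded with ViennaRNA 2.7.2. R was 4.3.3 and Python 3.11.15.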

Additional observations from a re-analysis of the deposited data

Results flagged for a closer look

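The arms of miR-483 and miR-675 gave 2 results with opposite signs under the same contrast in different cells. miR-483-5p had a log2 fold change of -0.46 on PERK knockdown in C2C12 cells at day 3, where it was not called, and of 1.52 in P19 cells, a difference of 1.98. miR-675-5p had a log2 fold change of -0.87 with differentiation in negative control cells and of 0.11 in PERK knockdown cells, a difference of 0.98, and neither value was called. The counting intervals of the -0.46 of miR-483-5p (-1.79 to 0.75) and the 0.11 of miR-675-5p (-0.91 to 1.12) both hold 0. The signs of these 2 values are therefore not settled by the reads. The sign of miR-675-5p in knockdown cells depends on the scaling, at -0.33 with total reads and -0.17 with the upper quartile, which is the sign of negative control cells under the same scalings (-1.23 and -0.96). The same 4 libraries give the difference for miR-675-5p as 1.0 when taken as the knockdown change of day 3 minus that of day 0, with a counting interval of 0.05 to 1.95. miR-483-5p in P19 cells was within the fold limit with total reads, at 0.91, and its difference from C2C12 cells was not tested. Each value rests on 1 library per condition, so neither difference was tested against the spread between cultures.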

How the results depend on the processing

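Of 144 results of the members under the alternatives, 129 kept both their sign and their call or lack of a call. Results that a minimum of 10 CPM or RPM removed are not among the 144. At that minimum these were all of miR-483 and, in differentiating shPerk cells, both arms of miR-675. Some of the miR-483 results removed were calls under the main settings. In 2 the sign changed: miR-675-5p in differentiating shPerk cells was at -0.33 with total reads and at -0.17 with the upper quartile. Filters and assumed coefficients of variation leave the log2 fold change as it is and can move the call alone, so part of this stability was fixed in advance. miR-675-3p lay between -4.75 and -4.23 at day 3 and between -4.74 and -4.39 at day 0 on knockdown, and miR-675-5p between -3.91 and -3.53 and between -4.87 and -4.54. With ATF4 they lay between -2.29 and -1.72 and between -2.09 and -1.53.

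With total reads the members called in differentiating shNC cells were 4, miR-675-3p at -1.20 and miR-675-5p at -1.23 being added, and in differentiating shPerk cells 0, with miR-483-3p at 1.86. In P19 cells miR-483-3p was then called at -1.30 and miR-483-5p no longer at 0.91. At an assumed coefficient of variation of 0.4 miRNAs called were 46 and 56 on knockdown at day 3 and day 0, and 7 and 1 with differentiation in shNC and shPerk cells; calls lost were miR-483-3p on knockdown (-1.79 at day 3, -1.86 at day 0), both arms of miR-483 in shNC cells (2.26 and 2.17, members called 0) and miR-483-3p in shPerk cells (2.29, members called 0). At 0.2, miRNAs called with differentiation were 96 and 104, and miR-483-3p lost its calls on knockdown at day 0 (-1.86) and in differentiating shPerk cells (2.29, members called 0). Without a filter the call of miR-483-3p at day 0 (-1.86) was lost, and 2 members were called in shPerk cells. A minimum of 10 CPM or RPM left 130 calls at day 0, 91 and 105 with differentiation (members called in shNC cells 0) and 83 with ATF4. The causes were not tested beyond fewer miRNAs entering stricter filters.

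Scaling moved the split of calls. Lower and higher calls were 126 and 115 on knockdown at day 3 (160 and 83 with total reads, 153 and 87 with the upper quartile), 109 and 99 at day 0 (129 and 73, 140 and 71), 65 and 89 with differentiation of shNC cells (129 and 48, 84 and 71, and 84 and 71 with TMM factors from filtered miRNAs, an alternative chosen after seeing the data), and 72 and 96 of shPerk cells (150 and 48, 117 and 68). They were 54 and 88 with ATF4 (124 and 53 with the upper quartile) and 123 and 123 in P19 cells (247 and 46 with total reads). With total reads, all miRNAs together had a median log2 fold change of -0.32, -0.19, -0.30, -0.40, -0.07 and -0.65 in the same order, where TMM put it between -0.05 and 0.05. No paired analysis was possible because each condition has 1 library. Depth limits miR-483 most, with 0 to 64 reads per arm.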
